A study of Homo sapiens with 9 samples.

Results

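Isolated CTCF peaks are places where CTCF was called on the genome of MiaPaCa2 cells with no other CTCF call for a long way on either side. They were chosen by 1 value, the distance between summits: a peak was a member when the nearest other CTCF summit on its chromosome lay at least 200 kb away. This rule took 828 of the 31754 peaks of the CTCF list, or 2.61% (exact 95% interval 2.44% to 2.79%). Another 30925 peaks had a neighbour closer than that and are called the other CTCF peaks here. One peak, alone on chromosome Y, had no neighbour to measure from and was put in neither group.

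The study mapped DNA-bound ZEB1 and CTCF by chromatin immunoprecipitation with sequencing (ChIP-seq) on formaldehyde-fixed cells. The series as used here has 9 samples, 5 of them with a peak list and 4 of them input DNA that was not analysed here. CTCF was mapped in untreated MiaPaCa2 cells, a line from a pancreatic ductal adenocarcinoma, with the Millipore rabbit antiserum 07-729 of lot 2275585. ZEB1 was mapped with the antibody SC-25388 in untreated MiaPaCa2 cells (lot H1513), in untreated RKO cells from a colon carcinoma (lot G2315), and in a pair of MiaPaCa2 clones (both lot K1615). Each clone grew from diluted MiaPaCa2 cells after electroporation with Cas9-nickase plasmids. The delta-Repeat clone was also given guide RNA pairs against the repeats upstream of MIR200A/B, and the WT clone is its control. Each of the 2 genotypes is thus 1 clone, and CTCF was mapped in neither. There was 1 sample with a list per condition, so no value below can be set against a spread between cultures, and no test was run. The intervals given cover counting error only, and neighbouring peaks are not independent of each other.

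CTCF binds a long DNA motif through an array of zinc fingers, marks many insulators, and can stop the cohesin complex as it extrudes chromatin loops, so that many loop borders carry it. CTCF sites are in general denser in gene-rich chromatin than in gene-poor stretches. ZEB1 is a zinc-finger repressor that binds E-box sequences, shuts down genes of the epithelial state and is a driver of epithelial-to-mesenchymal transition.

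The members stood in long empty stretches. Gaps of the assembly, where no peak can be called, were not marked and count as empty in all distances here. Their nearest other CTCF summit lay at a median of 307.5 kb, with a lower quartile of 238.2 kb, an upper quartile of 439.3 kb and a maximum of 3609 kb. For the other CTCF peaks the median was 15.08 kb. By the distance to that neighbour, 394 members were at 200 to 300 kb, 272 at 300 to 500 kb, 134 at 500 kb to 1 Mb and 28 at 1 Mb or more. The class next to the limit of the rule was therefore the largest, without holding most members, and there was a thin tail of far more distant ones. Of the 820 members with a CTCF peak on both sides, 161 had at least 500 kb free on each side and 27 at least 1 Mb. The longer gap was under 2 times the shorter in 515 of these 820. The rule itself favours gaps of like length, because both must be at least 200 kb. How often the rule alone would give them was not tested. The gap on the left and the gap on the right added up to a median of 959 kb. The other 8 members were the outermost CTCF peak at an end of their chromosome's list and had a neighbour on 1 side only.

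The limit of 200 kb is a cut through a continuous range, which the peaks beside it show. The 5 members just inside it had their neighbour at 200.3 to 201.3 kb, with fold enrichments over the caller's background of 11.3 on chromosome 4 (76215043 to 76215437), 7.58 on chromosome 6 (162544814 to 162545188), 8.01 and 12.0 on chromosome X (83100490 to 83100734 and 83301375 to 83301848, each other's nearest neighbour), and 7.54 on chromosome 10 (6961999 to 6962213). The 5 peaks just outside it had their neighbour at 198.8 to 199.9 kb, with folds of 6.13 on chromosome 3, 14.1 on chromosome 5, 14.4 on chromosome 8, 6.18 on chromosome 7 and 11.6 on chromosome 6. The folds of these 5 peaks on each side covered overlapping ranges, and so few peaks do not give the medians of the wider classes.

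Isolated peaks often followed one another along a chromosome. For 275 of the 828 (33.2%) the nearest CTCF peak was itself isolated. Counting an unbroken series of members as a run, the 828 peaks formed 525 runs, of which 332 held a single peak. The remaining 496 peaks lay in runs of 2 or more, 254 of them in runs of 3 or more, and 8 runs held at least 5. Close to 6 in 10 isolated peaks, then, had another isolated peak as a direct neighbour. The rule itself favours this, because a direct neighbour of a member already has a gap of at least 200 kb on that side. How many such runs the rule alone would give was not tested.

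The run with the most peaks had 9 members on chromosome 13, with summits from 87116635 to 91017598. It was 3.90 Mb long, and 5.12 Mb separated the CTCF peaks that closed it on either side. Its members had folds of 5.66 to 14.1, with a median of 9.11. A run of 7 on chromosome 11 (38813139 to 42792184) covered 3.98 Mb within a stretch of 6.33 Mb, with a median fold of 8.59. A run of 7 on chromosome 4 (134945575 to 138045626) covered 3.10 Mb within 4.499 Mb, with a median fold of 5.66. The last run of 7, on chromosome X (80451480 to 83984994), covered 3.53 Mb within 4.18 Mb and had a median fold of 6.48, although its final member reached 25.4. Within these 4 runs the members followed each other at distances of 200.9 kb to 1063.6 kb. A run of 6 farther along chromosome X (85106660 to 96025516) was longer, at 10.9 Mb, because it holds a gap of 9106 kb.

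Few ZEB1 summits lay in the same stretches, and 0 of any of the 4 lists lay between the first and the last member of these runs. On chromosome 13 there was 1 MiaPaCa2 ZEB1 summit, no RKO or WT clone summit and 2 delta-Repeat clone summits between the closing CTCF peaks, and all 3 lay in the last 0.1 Mb of the stretch. On chromosome 11 there was 1 RKO summit and none from the other 3 lists. The stretches of the runs on chromosome 4 and chromosome X held no ZEB1 summit from any of the 4 lists.

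**Figure D1:**
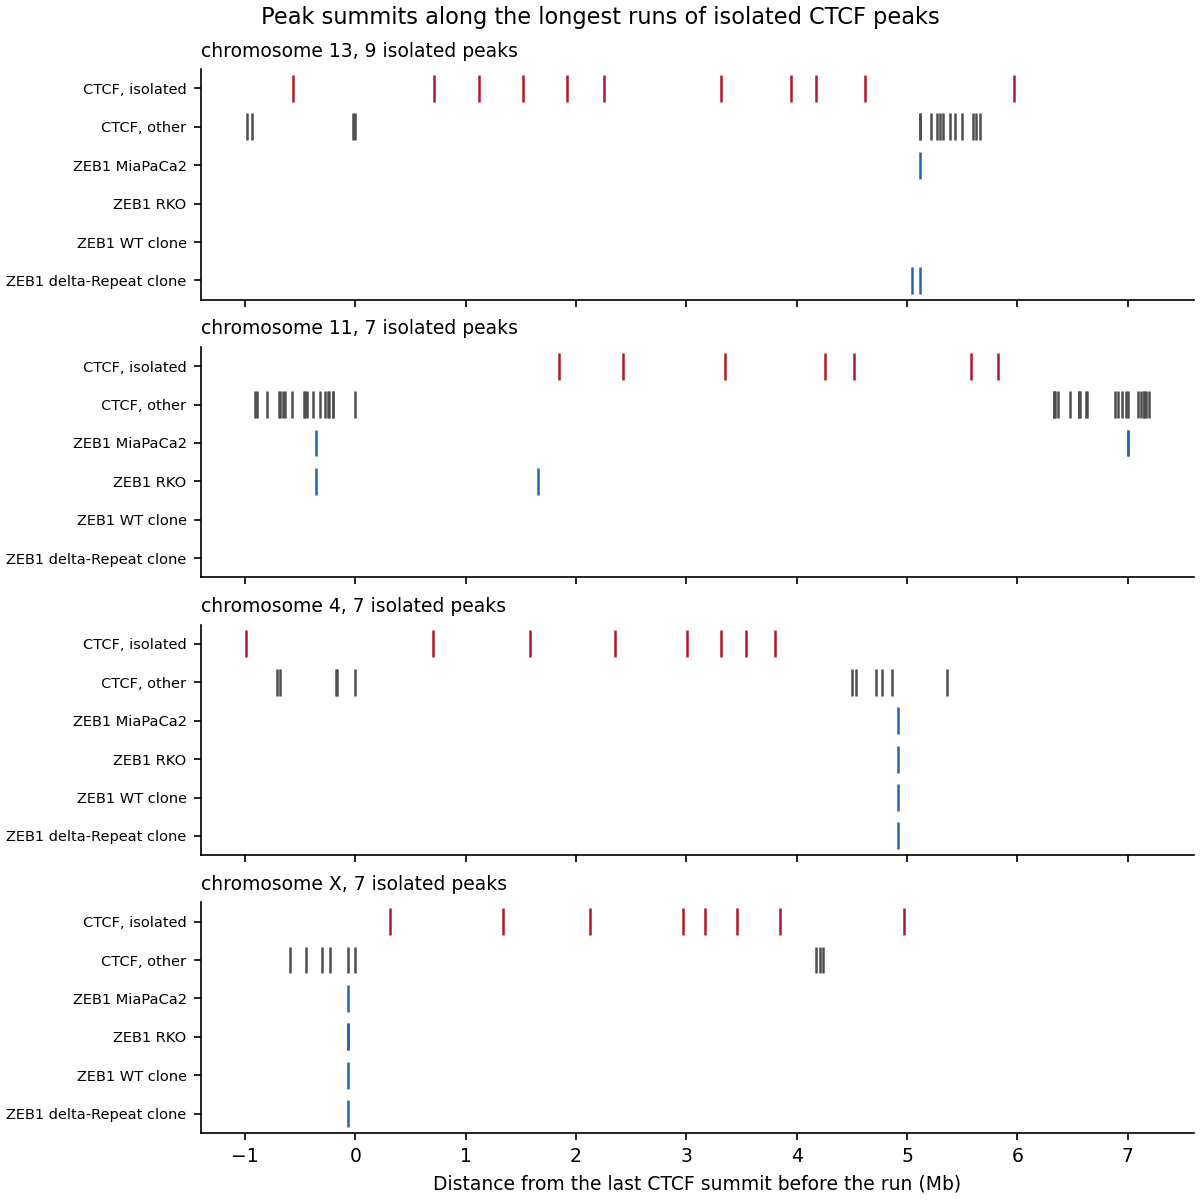
Peak summits along the 4 runs with 7 or more isolated CTCF peaks, by distance in Mb from the last CTCF summit before each run; each vertical tick is a summit, in red for isolated CTCF peaks, grey for other CTCF peaks and blue for ZEB1 in each of the 4 lists. The margin of 1 Mb on both sides can hold further isolated peaks that are not of the run; between the first and last peak of each run the ZEB1 tracks are empty, and the stretches up to the closing CTCF peaks hold 1 MiaPaCa2 and 2 delta-Repeat clone summits on chromosome 13 and 1 RKO summit on chromosome 11.

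The isolated peaks were weaker and narrower than the other CTCF peaks. Fold, width and the caller's q-value belong to the very list the members were selected on, so these values describe the members and support nothing further. The median fold of the isolated peaks was 8.01 (95% interval 7.90 to 8.42), against 10.9 (10.8 to 11.1) for the other CTCF peaks. The interquartile range was 6.39 to 11.3 for isolated peaks, and their extremes were 1.74 and 44.4. The median −log10 q was 13.03 in isolated peaks and 24.2 in the others. In the ranking of the whole list by fold, where rank 1 is the strongest, the median isolated peak stood at 22019 and the median other peak at 15656.

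At the ends of the ranking the members were spread unevenly. When the list was cut by fold into 4 classes of about equal size, 322 isolated peaks (38.9%, interval 35.6% to 42.3%) fell in the weakest class, against 24.6% of the other peaks. The strongest class held 69 isolated peaks (8.33%, 6.54% to 10.4%), against 25.5% of the others. Only 3 isolated peaks were among the 1000 strongest CTCF peaks. A stricter threshold of fold at least 5 with −log10 q at least 10 was passed by 551 isolated peaks, or 66.6% (63.2% to 69.8%). In the whole CTCF list 80.4% of peaks passed it, and among the other CTCF peaks 80.8% did.

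Isolated peaks had a median width of 327 bp (316 to 337), and the other CTCF peaks one of 389 bp (387 to 390). The smallest width in the list, 200 bp, was held by 45 isolated peaks (5.44%) and by 2.47% of the others. Stronger CTCF peaks were wider, and the isolated peaks were narrower within each class of fold too. From the weakest to the strongest fold class, their median widths were 249, 336, 394 and 444 bp, against 265, 357, 420 and 486 bp for the other CTCF peaks. The intervals of the medians did not overlap in the 3 weaker classes. The classes are broad, and the median folds of the 2 groups inside them were not equal, at 6.02 for isolated and 5.89 for other peaks in the weakest class and 17.8 and 19.3 in the strongest. The intervals of width overlapped in the strongest, where that of the isolated peaks ran from 425 to 489 bp and that of the others from 483 to 490 bp. Peaks with a neighbour at 100 to 200 kb, just outside the rule, had median widths of 253, 340, 406 and 449 bp in the 4 fold classes. Their intervals overlapped those of the isolated peaks in each class. The narrower width at like fold was thus not particular to the isolated peaks.

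Both measures changed stepwise with distance and not at the limit alone. Peaks with their neighbour within 5 kb had a median fold of 11.2, those at 5 to 20 kb 11.3, those at 20 to 50 kb 10.8 and those at 50 to 100 kb 10.6. These 4 neighbouring medians lay close together, and the intervals of each next pair overlapped or touched. Below them came 9.43 (9.12 to 9.76) at 100 to 200 kb. The 4 classes of isolated peaks followed with 8.53 (8.02 to 8.96), 8.01, 7.52 and 7.00. The interval at 100 to 200 kb overlapped neither that at 50 to 100 kb nor that at 200 to 300 kb. Among the isolated classes the intervals of neighbours overlapped again. Median width went from 404 bp in the closest class to 356 bp (349 to 362) at 100 to 200 kb, 343.5 bp (329 to 354) at 200 to 300 kb and 286 bp at 1 Mb or more. Unlike those of fold, the intervals of width on the 2 sides of the limit overlapped. Among the 28 members at 1 Mb or more, 17 were in the weakest fold class and 0 in the strongest. At 28 peaks, 0 is compatible with a share of up to 12.3% (exact interval).

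**Figure D2:**
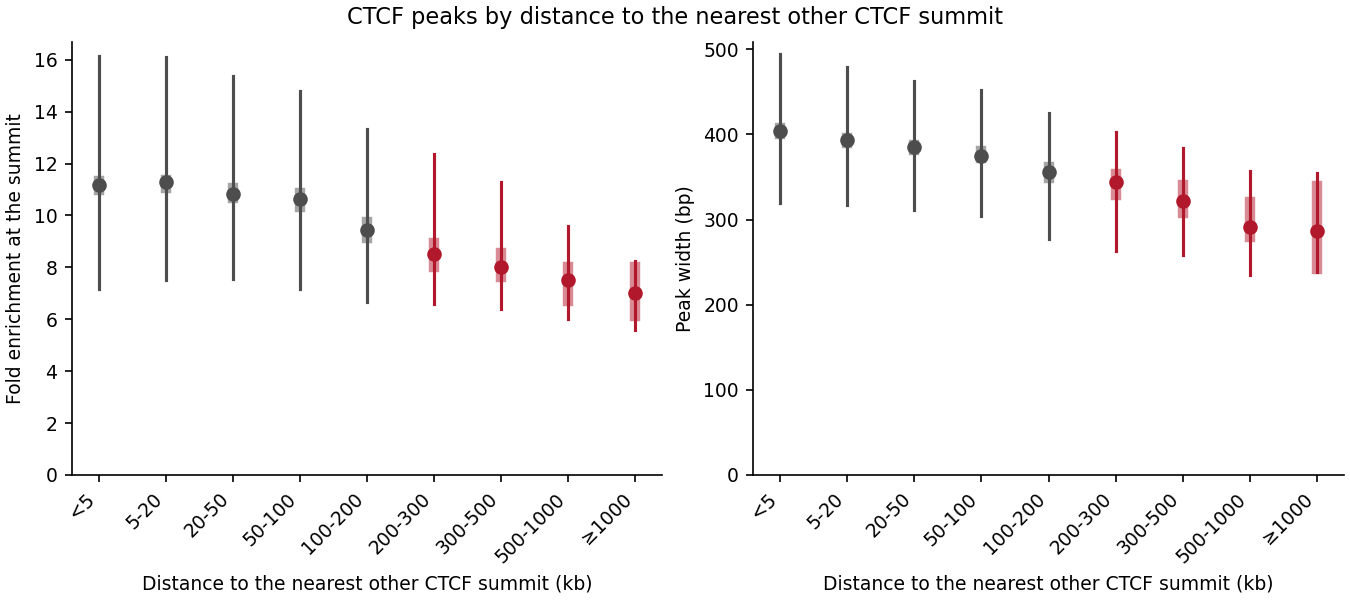
Fold enrichment at the summit (left) and peak width in bp (right) of CTCF peaks, by distance to the nearest other CTCF summit in kb; dots are medians, thick bars their 95% intervals, thin bars the interquartile range, and red marks the 4 classes of isolated peaks. Median fold lies between 10.6 and 11.3 up to 100 kb and goes down to 7.00 at 1 Mb or more, and median width goes from 404 bp to 286 bp.

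Some isolated peaks were strong all the same. The strongest was that at 73121664 to 73122358 of chromosome 6. Its fold was 44.4, its −log10 q 207.7 and its rank 103 of 31754. Its neighbours were 327.2 kb to the left and 204.3 kb to the right, and its nearest MiaPaCa2 ZEB1 summit 1002 kb away. Next came chromosome 13 from 53024580 to 53025130 (fold 31.1, rank 452) and chromosome 8 from 20898356 to 20898954 (fold 29.5, rank 569). These 3 were the members within the first 1000 ranks.

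The other 7 of the 10 strongest members had folds of 22.9 to 26.0 and ranks of 1013 to 1906. They started on chromosome X at 52004591 and 83984816, on chromosome 18 at 31702499, on chromosome 6 at 106181205, on chromosome 20 at 19186563, on chromosome 7 at 35077432 and on chromosome 5 at 101014244. All 10 had their nearest neighbour at 202.3 to 400.8 kb, in the lower part of the range of distances. None of the 10 overlapped a peak of any ZEB1 list. The nearest MiaPaCa2 ZEB1 summit ranged from 44.8 kb away, for the chromosome 13 peak, to 3920.5 kb for the chromosome X peak at 83984816, the closing member of the run of 7.

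The 10 most distant members were mostly weak. The most distant was on chromosome X from 96025379 to 96025632, with 9106 kb free to its left and 3609 kb to its right. Its fold was 6.13 and its width 254 bp, and the nearest MiaPaCa2 and RKO ZEB1 summits were 4159 and 3865.7 kb away. On chromosome 15 the peak from 20561563 to 20561986 (fold 8.01) was the leftmost of its chromosome and had its only neighbour at 1874.5 kb. On chromosome 2 the peak from 125561679 to 125561920 (fold 7.07) had 2352.9 kb and 1724.1 kb free.

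A pair among the 10 were above the median fold of the whole list. The peak on chromosome 7 from 62475981 to 62476407 had a fold of 14.9, with gaps of 6315.4 and 1603.5 kb. The peak on chromosome 11 from 98886437 to 98886970 had a fold of 12.7, with gaps of 1874.6 and 1560.6 kb. The chromosome 7 peak was also the only member at 1 Mb or more with a MiaPaCa2 ZEB1 summit within 1 Mb, at 910.4 kb. The remaining 5, on chromosomes X, X, 13, 14 and 1, had folds of 5.19 to 7.05 and a neighbour at 1377.5 to 1591.8 kb.

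At the low end stood 3 members with a fold under 3, of 16 such peaks in the whole list. The lowest was at 42399475 to 42399718 of chromosome 10. Its fold was 1.74, its −log10 q 2.79 and its rank 31753 of 31754. The peak on chromosome 1 from 121484599 to 121485418 had a fold of 2.07 and that on chromosome 16 from 33963176 to 33963497 a fold of 2.35. The caller gave the latter 2 a −log10 q of 16.5 and 10.9 in spite of these folds. The next lowest, on chromosomes 19 (from 23254181) and X (from 66775541), had folds of 3.72 and 3.76. By width the extremes were mixed, since the 5 widest members, of 695 to 858 bp, included the chromosome 1 peak of fold 2.07 as well as the strongest member on chromosome 6. The widest of all was on chromosome 5 from 151522383 to 151523240, at 858 bp and a fold of 17.1.

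Isolated peaks were found on 23 chromosomes, in very unequal shares. Chromosome 4 had the highest share, 90 of its 1286 CTCF peaks or 7.00% (5.67% to 8.53%). Chromosome 13 followed with 43 of 642 (6.70%, 4.89% to 8.92%) and chromosome X with 65 of 972 (6.69%, 5.20% to 8.44%). The intervals of these 3 overlapped one another. Together they held 198 isolated peaks, 23.9% of the members, although they held 9.13% of all CTCF peaks.

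The lowest shares were on chromosomes 17, 20, 19 and 22. Chromosome 17 had 10 isolated peaks among 1658 (0.603%, 0.290% to 1.11%), chromosome 20 had 6 among 976 (0.615%), chromosome 19 had 9 among 1399 (0.643%) and chromosome 22 had 5 among 657 (0.761%). On these 4 the intervals overlapped as well, and all 4 upper bounds lay under the lower bounds of chromosomes 4, 13 and X. Leaving out chromosome Y with its 1 peak, the density of CTCF peaks itself went from 5.58 per Mb on chromosome 13 to 23.7 per Mb on chromosome 19. These lengths include gaps of the assembly, which lowers the density where such gaps are long. On chromosome 13 the first CTCF peak started at 19728219.

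The difference in strength and width was not that of a few chromosomes. On each of the 23 chromosomes the isolated peaks had both a lower median fold and a lower median width than the other CTCF peaks of the same chromosome. The medians of fold were closest on chromosome 21 (9.78 against 10.6) and far apart on chromosome 22 (5.66 against 11.3), where there were 5 members.

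**Figure D3:**
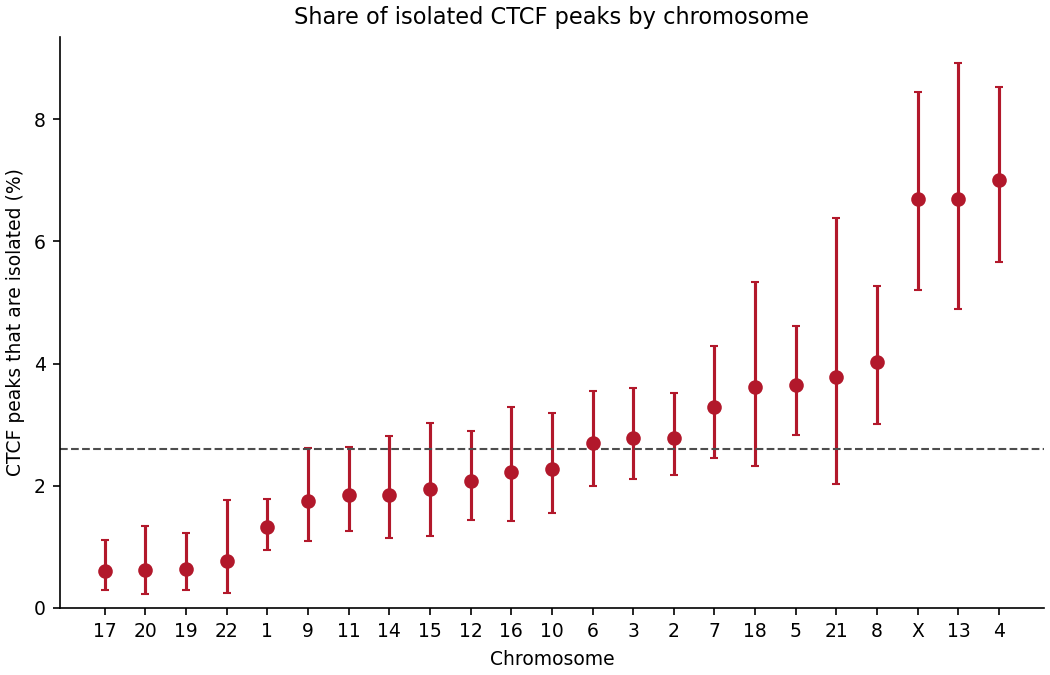
Share of CTCF peaks that are isolated (%) on each chromosome, in ascending order; dots are shares, bars exact 95% intervals, and the dashed line is the share in the whole list, 2.61%. Chromosomes 4, 13 and X stand at 6.69% to 7.00%, and chromosomes 17, 20, 19 and 22 at 0.603% to 0.761%.

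The ZEB1 lists were not used to choose the members. The rule still touches them in part, because a ZEB1 peak that overlaps a CTCF peak cannot lie much closer than 200 kb to an isolated peak unless it overlaps that peak itself. Isolated CTCF peaks were far from ZEB1. Their median distance to the nearest MiaPaCa2 ZEB1 summit was 1069 kb (1001 to 1138), against 140.0 kb (137.0 to 144.0) for the other CTCF peaks. To the nearest RKO ZEB1 summit it was 1007.5 kb (928.7 to 1077), against 111.7 kb (108.8 to 114.4). The order was the same in both unmodified lines, although the CTCF list comes from MiaPaCa2 alone. An alternative chosen after seeing the data kept only the ZEB1 peaks that overlap no CTCF peak, 3833 of 4804 in MiaPaCa2 and 6129 of 7193 in RKO. The median distances from isolated peaks were then 1170 kb (1083 to 1288) and 1077 kb (1003 to 1181), against 186.6 and 136.8 kb from the other CTCF peaks. The long distances were thus also there for ZEB1 away from CTCF.

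A MiaPaCa2 ZEB1 summit lay within 200 kb of 58 isolated peaks, or 7.01% (5.36% to 8.96%), and of 58.8% of the other CTCF peaks. An RKO ZEB1 summit lay within 200 kb of 74 isolated peaks, or 8.94% (7.08% to 11.1%), and of 63.7% of the others. So in each line more than 9 in 10 members had no ZEB1 summit in the window that was free of other CTCF summits: 770 had none from MiaPaCa2 and 754 none from RKO. At the far end, 443 members (53.5%) were more than 1 Mb from any MiaPaCa2 ZEB1 summit, against 8.39% of the other peaks, and 417 (50.4%) more than 1 Mb from any RKO summit, against 7.75%. Where members did have ZEB1 near, it was mostly a single summit, with 16 members having at least 2 from MiaPaCa2, 25 having at least 2 from RKO, and 6 as the highest number in either.

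The clone lists, which are shorter (1515 WT clone and 2160 delta-Repeat clone peaks, against 4804 of MiaPaCa2 and 7193 of RKO), gave longer distances with the same order. The median from isolated peaks was 2134 kb to the WT clone and 1539 kb to the delta-Repeat clone, and from the other peaks 507.0 and 314.5 kb. A WT clone summit lay within 200 kb of 19 isolated peaks (2.30%) and a delta-Repeat clone summit within 200 kb of 37 (4.47%), against 29.9% and 39.0% of the other peaks. The distances to different lists are not to be ranked against each other, since a longer list gives shorter distances.

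**Figure D4:**
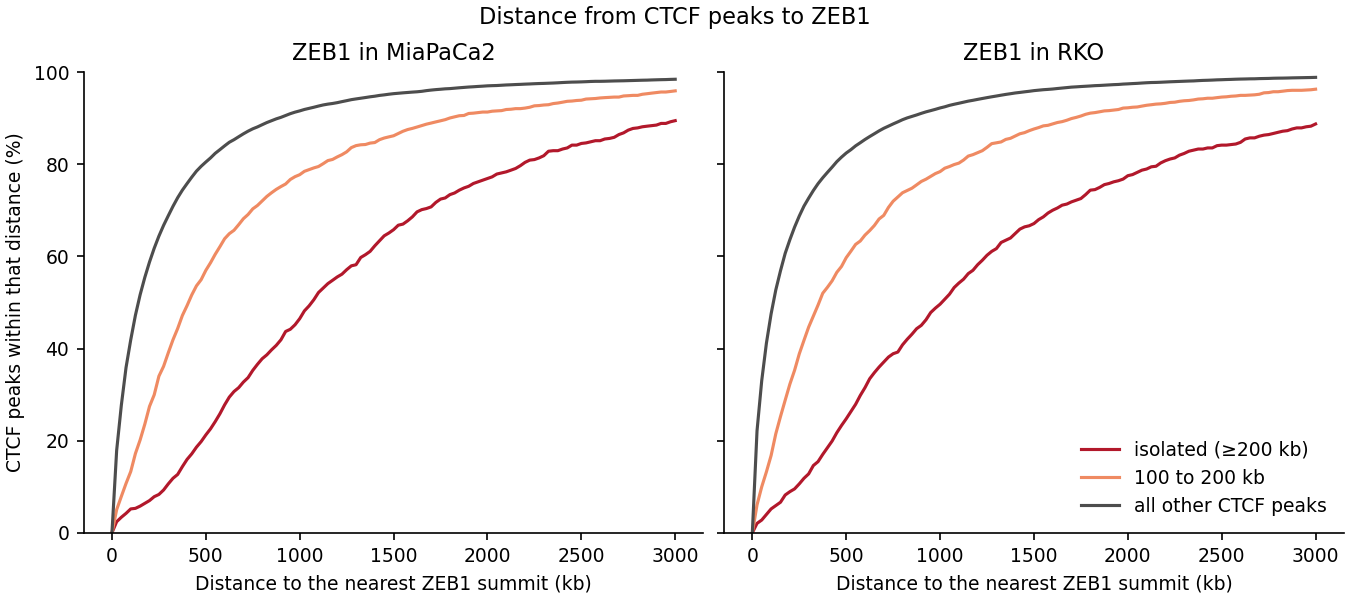
Cumulative share of CTCF peaks (%) with a ZEB1 summit within the distance on the horizontal axis (kb), for ZEB1 in MiaPaCa2 (left) and RKO (right); lines are the 828 isolated peaks, the 1632 peaks with a neighbour at 100 to 200 kb, and all 30925 other CTCF peaks. At 200 kb the line of the isolated peaks is at 7.01% in MiaPaCa2 and 8.94% in RKO, and that of all other peaks at 58.8% and 63.7%.

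Distance to ZEB1 went along with distance to CTCF through the whole list. In MiaPaCa2 the median distance to ZEB1 was 89.6 kb for CTCF peaks with a neighbour within 5 kb, 118.1 kb at 5 to 20 kb, 151.8 kb at 20 to 50 kb, 226.7 kb at 50 to 100 kb and 406.5 kb at 100 to 200 kb. Within the isolated peaks it went on to 882.7 kb (745.3 to 1001) at 200 to 300 kb, 1006 kb (890.0 to 1105) at 300 to 500 kb, 1461 kb (1343 to 1704) at 500 kb to 1 Mb and 2322 kb (2064 to 2810) at 1 Mb or more. Only the classes of 200 to 300 kb and 300 to 500 kb had overlapping intervals. In RKO the 4 isolated classes gave 789.7, 929.2, 1421 and 2175 kb. The members thus continued a trend that was already there among the other peaks.

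Weaker peaks were not the only ones far from ZEB1. Among the 322 members of the weakest fold class the median distance to MiaPaCa2 ZEB1 was 1125 kb, against 144.5 kb for the other CTCF peaks of that class. In the following classes it was 1078 against 164.1 kb and 1002 against 153.4 kb. In the strongest class, with 69 members, it was 695.6 kb (567.3 to 1116) against 106.9 kb (102.4 to 111.3). For RKO the corresponding values in the strongest class were 567.2 kb (487.0 to 707.0) and 82.3 kb. In each of the 4 fold classes the isolated peaks had the longer median distance to ZEB1, in MiaPaCa2 and in RKO.

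By chromosome, the isolated peaks had the longer median distance on 23 of 23 chromosomes, for MiaPaCa2 ZEB1 and for RKO ZEB1. For MiaPaCa2 their medians ran from 406.4 kb on chromosome 20 to 1799 kb on chromosome X. For RKO they ran from 176.3 kb on chromosome 19, where the other CTCF peaks had 29.3 kb, to 2827 kb on chromosome 13. These medians rest on few separate places where the members of a chromosome lie in runs, as on chromosome 13.

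An overlap of at least 1 bp between an isolated CTCF peak and a ZEB1 peak was rare. Of the 828 members, 6 overlapped a MiaPaCa2 ZEB1 peak (0.725%, 0.266% to 1.57%), where 3.1% of the whole CTCF list did. An RKO ZEB1 peak was overlapped by 5 members (0.604%, 0.196% to 1.40%), where 3.36% of the whole list did. For the WT clone it was 3 members (0.362%, 0.0748% to 1.06%) beside 0.995% of the list, and for the delta-Repeat clone 7 members (0.845%, 0.341% to 1.73%) beside 1.57%. For MiaPaCa2 and RKO the share in the whole list lay above the members' interval. For the WT clone it lay inside, and for the delta-Repeat clone too, so that with 3 and 7 overlaps a difference from the list was not detectable there. Peaks with a neighbour at 100 to 200 kb had 1.23% (0.750% to 1.89%) for MiaPaCa2 and 1.04% (0.608% to 1.66%) for RKO, and both intervals overlapped those of the members. For the WT and delta-Repeat clones they had 0.184% and 0.552%, below the members. Rare overlap was thus not particular to the isolated peaks.

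The members that overlapped any ZEB1 list were 10 in all. Of these, 3 were in both the MiaPaCa2 and the RKO list, 3 in MiaPaCa2 and not RKO, 2 in RKO and not MiaPaCa2, and 2 in a clone only. The highest ZEB1 fold was at the peak on chromosome 7 from 155949468 to 155949998, whose own CTCF fold was 7.45. The MiaPaCa2 ZEB1 peak there had a fold of 15.5 (rank 370 of 4804), the WT clone peak one of 9.03 (rank 484 of 1515) and the RKO peak one of 4.70 (rank 5942 of 7193). The CTCF and ZEB1 peaks overlapped in part, with summits 538 bp apart in MiaPaCa2. No delta-Repeat clone peak overlapped it, but the nearest summit of that list was 791 bp away.

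On chromosome X the peak from 55744372 to 55745009 had a CTCF fold of 17.4. It overlapped ZEB1 peaks of fold 7.30 in MiaPaCa2, 11.2 in RKO (rank 754 of 7193) and 6.19 in the delta-Repeat clone, and none in the WT clone. Their summits were 320 to 416 bp from the CTCF summit. These were the members with the highest overlapping ZEB1 fold in MiaPaCa2 and in RKO, and at both of them the CTCF summit lay away from the MiaPaCa2 ZEB1 summit, by 538 and 416 bp.

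At 3 members the MiaPaCa2 and the delta-Repeat clone list had ZEB1 and the RKO and WT clone lists did not. On chromosome 21 from 36772761 to 36773189 (CTCF fold 11.2) the MiaPaCa2 ZEB1 fold was 7.36 with summits 43 bp apart. On chromosome 18 from 65183183 to 65183565 (CTCF fold 12.0) it was 5.29 with summits 70 bp apart. On chromosome 8 from 129665592 to 129665953 (CTCF fold 7.16) it was 4.996 with summits 22 bp apart. Here the summits were close, and the ZEB1 ranks were 1844, 3724 and 3963 of 4804. The latter 2 had folds below the median of the MiaPaCa2 ZEB1 list, 6.53.

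The 2 members with ZEB1 in RKO and in no other list were on chromosome 16 from 49034606 to 49034814 (CTCF fold 5.21, RKO ZEB1 fold 5.77, summits 44 bp apart) and on chromosome 8 from 126444172 to 126444578 (CTCF fold 12.7, RKO ZEB1 fold 3.80, summits 328 bp apart). On chromosome 9 the peak from 93405180 to 93405657 (CTCF fold 17.9) met only a delta-Repeat clone peak of fold 4.71, at rank 1990 of 2160. These ZEB1 peaks stood in the lower part of their own lists.

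The 2 remaining overlaps were at the members of fold under 3. The chromosome 1 peak from 121484599 to 121485418 was the 1 member that overlapped all 4 ZEB1 lists. ZEB1 in MiaPaCa2 had a fold of 1.84 there, ZEB1 in RKO 1.62, the WT clone 1.78 and the delta-Repeat clone 1.87. These were the lowest rank of the list in MiaPaCa2 (4804 of 4804), RKO (7193 of 7193) and the delta-Repeat clone (2160 of 2160), and rank 1514 of 1515 in the WT clone. The next CTCF summit to its right was 23448 kb away, with any gap of the assembly counted in. The chromosome 16 peak from 33963176 to 33963497 overlapped ZEB1 in both clones only, with folds of 2.52 (rank 1510 of 1515) and 2.88 (rank 2157 of 2160) and summits at 0 and 5 bp. Of the 10 members with ZEB1, these 2 thus combined the lowest CTCF folds with the lowest ZEB1 ranks. Whether signal unrelated to either protein was called at these 2 positions was not tested.

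Around the isolated peaks as a whole, the empty zone of CTCF was also poor in ZEB1. The 200 kb on either side of every member, merged where they touch, made 704 intervals of 317.4 Mb in all, or 10.5% of the 3032.3 Mb that the lists span, gaps of the assembly included. Of the 4804 MiaPaCa2 ZEB1 summits 81 were in this territory (1.69%, 1.34% to 2.09%), and of the 7193 RKO summits 110 (1.53%, 1.26% to 1.84%). For the WT clone it was 25 of 1515 (1.65%) and for the delta-Repeat clone 42 of 2160 (1.94%). ZEB1 was therefore 6.82 times denser outside than inside in MiaPaCa2, at 1.74 against 0.255 summits per Mb. In RKO it was 7.53 times denser outside (2.61 against 0.347), and in the WT and delta-Repeat clones 6.97 and 5.90 times. CTCF itself was 4.37 times denser outside, a value that the rule sets. With ZEB1 peaks that overlap no CTCF peak alone, the contrast was 5.86 times for MiaPaCa2 and 6.71 times for RKO, and for the WT and delta-Repeat clones 6.60 and 5.46 times.

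Within the territory ZEB1 was not evenly spread, as the rings around the isolated summits show. In the first 10 kb on each side there were 16 MiaPaCa2 summits, or 0.966 per Mb, and from 10 to 50 kb there were 17, or 0.257 per Mb. From 50 to 100 kb the density was 0.350, and from 100 to 200 kb 0.157 per Mb. Beyond the rule's limit it was higher again, at 0.497 per Mb from 200 to 500 kb and 0.862 per Mb from 500 kb to 1 Mb. A small rise next to the CTCF peak was thus followed by an uneven trough and then by a climb with distance. The rise rests on 16 summits near 14 members, including the chromosome 1 peak of fold 2.07. No interval was computed for these densities. The climb did not start at the limit itself: in bins of 50 kb centred 225 kb to the left and right, the density was still 0.242 and 0.217 per Mb. Part of the trough is set by the rule through ZEB1 peaks that overlap CTCF.

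RKO ZEB1 had a profile of like outline, with 1.09 summits per Mb in the first 10 kb (18 summits) and 0.242 from 10 to 50 kb. The next pair of rings had 0.338 and 0.320 per Mb, and the outer pair 0.674 and 1.04. The lowest ring in RKO was that of 10 to 50 kb, and in MiaPaCa2 that of 100 to 200 kb. Around the other CTCF peaks the profile went the other way, from 6.90 per Mb in the first 10 kb down to 2.67 per Mb at 500 kb to 1 Mb in MiaPaCa2. Peaks with a neighbour at 100 to 200 kb lay between, with 2.02 per Mb in the first 10 kb, 0.751 from 10 to 50 kb and 1.53 at 500 kb to 1 Mb. Even at 1 Mb, then, the surroundings of isolated peaks held fewer ZEB1 summits than those of the other CTCF peaks. A ZEB1 summit near several CTCF peaks counts once for each of them in these densities.

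**Figure D5:**
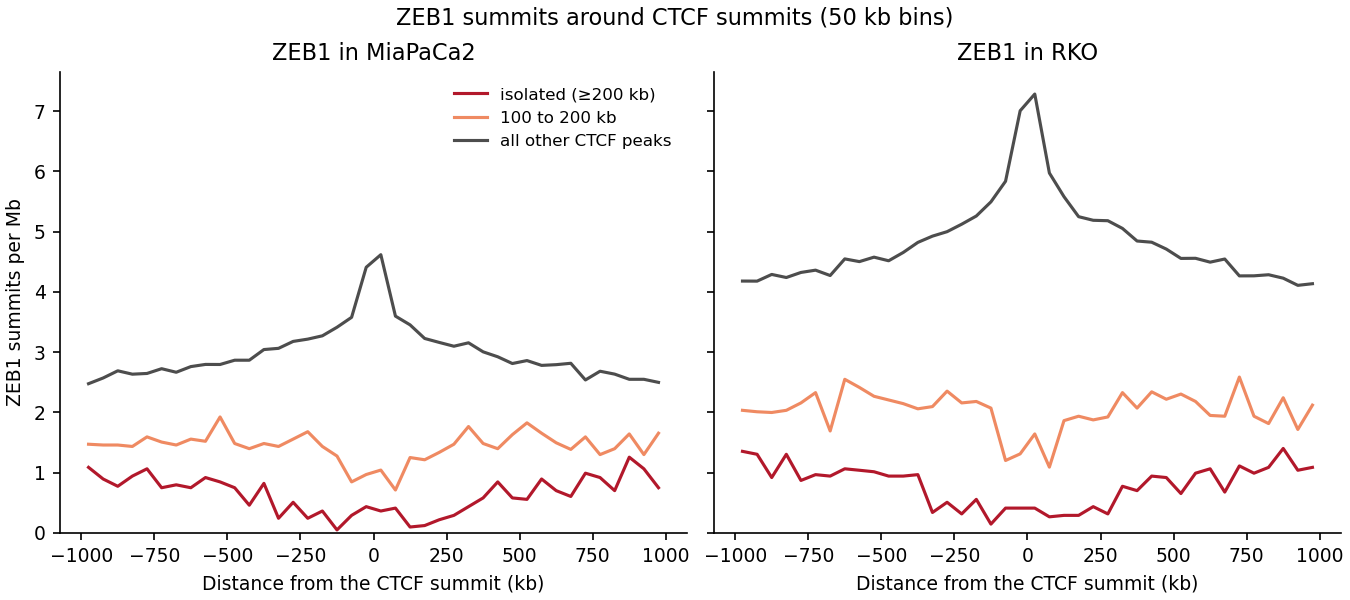
ZEB1 summits per Mb in bins of 50 kb, by distance from the CTCF summit (kb, negative to the left), for ZEB1 in MiaPaCa2 (left) and RKO (right); lines are isolated CTCF peaks, peaks with a neighbour at 100 to 200 kb, and all other CTCF peaks. The line of the isolated peaks stays low within 200 kb and in the bins just beyond, and is not lowest at the centre. It climbs farther out, while the line of all other peaks is highest at the centre.

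The folds of the ZEB1 peaks that did lie in the territory did not stand apart from those elsewhere. Their median fold was 6.66 in MiaPaCa2 (5.91 to 7.14, 81 peaks) against 6.53 outside, and 6.37 in RKO (5.77 to 7.01, 110 peaks) against 6.04. In the WT and delta-Repeat clones it was 7.64 and 6.76 inside, against 7.47 and 7.07. In all 4 lists the intervals inside and outside overlapped. Their overlap with other ZEB1 lists did not stand apart beyond its interval either: 49.4% (38.1% to 60.7%) of the MiaPaCa2 ZEB1 peaks in the territory overlapped an RKO peak, against 57.5% outside, and 38.2% (29.1% to 47.9%) of the RKO ones overlapped a MiaPaCa2 peak, against 39.1%. Few of them met CTCF, 6 of 81 (7.41%) in MiaPaCa2 and 5 of 110 (4.55%) in RKO, against 20.4% and 15.0% outside, but the rule leaves only the 828 isolated CTCF peaks in the territory to meet.

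Some of the ZEB1 peaks next to isolated CTCF peaks were among the strongest of their list. They were picked after their values had been seen, as the strongest in the territory. In MiaPaCa2 the strongest was the one at 114915649 to 114916373 of chromosome 13, of fold 27.9 and rank 96 among 4804. It was 76.4 kb from the isolated CTCF peak at 114992173 to 114992575, and RKO had a peak there with a fold of 23.1. On chromosome 2 the MiaPaCa2 ZEB1 peak from 157189111 to 157190668 (fold 22.8, rank 160) was 2.11 kb from an isolated CTCF summit.

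In RKO the strongest in the territory was the one at 233759859 to 233760483 of chromosome 1, of fold 31.8 and rank 56 among 7193, at 166.8 kb from the isolated summit. The RKO peak on chromosome 7 from 130125987 to 130126941 (fold 23.9, rank 116) was 4.47 kb from the isolated CTCF peak at 130130580 to 130131320, which is one of the 5 widest members at 741 bp. For MiaPaCa2 the nearest ZEB1 summit to that member was 288.5 kb away. On chromosome 7 near 155949468, the member with the highest overlapping ZEB1 fold had a second MiaPaCa2 ZEB1 peak, of fold 23.0, with its summit 0.827 kb away. Strong ZEB1 peaks thus did occur beside single members, in a territory with few ZEB1 peaks in all.

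Isolation also depended on which weak peaks were in the list. When the list was first cut to the 25545 peaks that passed the stricter threshold, 856 were isolated among them. All 551 members that passed it were isolated there too. This holds by construction, since leaving peaks out can only lengthen the distance to the nearest neighbour. Another 305 peaks became isolated once the weaker peaks around them were left out. In that stricter list the isolated peaks had a median fold of 10.1 against 12.6 for the others, and a median distance to MiaPaCa2 ZEB1 of 921.9 kb against 135.5 kb. The 277 members that did not pass the threshold are weaker calls themselves. The place of each of the 828 also rests on no further peak being called within 200 kb of it. The depth of the library, which sets how many weak peaks are called, is unknown from the list.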

How the data were processed

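The deposited lists hold 1 line per peak of 1 sample, with start, end and summit, on hg19 and counted from 1 here. The fold enrichment is a linear ratio of signal at the summit to the caller's background, and the p-value and q-value columns are −log10 values, all as the authors' peak caller deposited them. Bowtie2 2.2.6, SAMtools and MACS2 2.1.0.20150731, with hg19 and GRCh37 as builds, are listed in the submitters' processing notes. The control library of each list and any pooling were not given in the sources used here. Read depth is unknown from the lists. Fold and −log10 q were used only within their own list.

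Distances were taken between summits, and ranks, overlaps (at least 1 bp) and rings were computed with Python 3.11.15, numpy 2.4.6, pandas 2.3.3 and scipy 1.17.1, and drawn with matplotlib 3.10.9. The code was tested on simulated lists, where it found all 500 planted overlaps. Shares carry exact Clopper-Pearson and medians order-statistic 95% intervals. The length of a chromosome is the largest peak end over the 5 lists. The alternatives were other limits (100 and 500 kb), stricter lists, midpoints, joined peaks, summits within 100 bp, and leaving out members with 1 neighbour.

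The members and lists were chosen with earlier results of these data known. Peaks were named by rule: the 10 of highest fold, the 10 most distant, 5 on each side of the limit, the 5 lowest and the 5 widest, the 5 of highest ZEB1 fold, and the longest runs. The other overlapping members were added to account for all 10, the run of 6 for its gap, and the ZEB1 peaks in the territory for their fold. Peaks are named by position, without genes or sequence, as no genome of the build hg19 was used. The 4 input samples were not analysed here.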

Additional observations from a re-analysis of the deposited data

How the results depend on the processing

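Of 48 recomputed values under the listed alternatives, 30 stayed within the counting interval, or for the number of peaks within 1.5 times, and 18 did not. With a limit of 100 kb, 2460 peaks were isolated, with a median fold of 8.91, a width of 345 bp and ZEB1 distances of 577.3 kb (MiaPaCa2) and 534.3 kb (RKO). With 500 kb, 162 were, with 7.15, 291.5 bp, 1630.0 kb and 1629.9 kb. The stricter CTCF list gave a fold of 10.1, a width of 365.5 bp, 921.9 kb and 794.1 kb. With stricter ZEB1 lists the distances were 1811.6 kb and 1406.3 kb, by construction longer as fewer ZEB1 peaks are left. The share overlapping RKO ZEB1 was 0.121% (1 member) with the stricter ZEB1 list, and also when summits had to lie within 100 bp. Of 16 values under 3 alternatives chosen after seeing the data, 4 moved: without chromosomes 4, 13 and X the distances were 992.0 kb and 917.4 kb, and with only ZEB1 peaks that overlap no CTCF peak 1170.2 kb and 1077.0 kb, again with fewer ZEB1 peaks left. Leaving out the 3 members of fold under 3 moved none. Under the 2 other limits, the stricter CTCF list and joined peaks, where both sides were computed, the isolated peaks kept the lower fold, the lower width, the longer ZEB1 distances and the lower overlap. For the moved values other than those from shortened ZEB1 lists the cause was not tested. No paired analysis was possible because there is 1 sample in each group. Read depth, unknown from the lists, and the caller's threshold limit which weak peaks could break up an empty stretch.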
